A study of Mus musculus with 51 samples.

Results

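The 5 genes Sycp1, Syce1, Syce2, Syce3 and Tex12 encode the central region of the synaptonemal complex, and their transcription start sites (TSSs) were examined for histone marks at 5 stages of meiotic prophase I. They were taken by name from 20722 protein-coding genes on chromosomes 1 to 19, and a gene was counted as marked in a list when a called peak overlapped by at least 1 bp a window reaching 500 bp to each side of a protein-coding TSS (the 5′ end of a transcript in GENCODE M21, mm10). All 5 were found in the annotation, and all 5 were marked in at least 6 of the 10 H3K4me3 lists. Single H3K4me3 lists marked 25.2% to 46.3% of all genes, and the share of genes marked in at least 6 was not counted. The nuclei came from whole testis of wild-type adult C57Bl/6J males, with no transgene or treatment, and were fixed with formaldehyde and sorted by flow cytometry into leptonema, zygonema, diplonema, and early and late pachynema. H3K4me3 (EpiCypher antibody) had 10 peak lists, 1 each from experiments 1 and 2 at every stage. H3K4me2/3 (Abcam antibody, which binds the dimethyl as well as the trimethyl form) was profiled in experiment 2 alone (5 lists) and H3K9ac in experiment 1 alone (5 lists). Per the study's methods the gates used DNA content and SCP3, with STRA8 for leptonema and H1t and SCP1 for other stages, so the protein made from Sycp1 was itself a sorting marker. The lists hold peak positions without read counts, so the depth behind a call is unknown.

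The synaptonemal complex is the protein structure that holds homologous chromosomes together along their length during meiotic prophase. It forms in zygonema, is complete in pachynema and comes apart in diplonema. Its lateral elements are built on the chromosome axes, and its central region is made of transverse filaments, which span the gap between the lateral elements, and of a central element in the middle. Sycp1 encodes the transverse filament protein. Syce1, Syce2, Syce3 and Tex12 encode central element proteins, of which SYCE2 and TEX12 assemble with each other, and SYCE1 and SYCE3 lie closer to the ends of the SYCP1 filaments. Male mice that lack any of these genes are sterile. H3K4me3 and H3K9ac are marks of active promoters, and H3K4me2 also lies at the flanks of promoters and at enhancers.

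The genes lie on 5 different chromosomes. Sycp1 (ENSMUSG00000027855.13) spans chr3:102818499-102936100 on the minus strand, with protein-coding TSSs at 102936100 and 102936090. Syce1 (ENSMUSG00000025480.5) spans chr7:140777229-140787852 on the minus strand, with TSSs at 140787852 and 140787837. Syce2 (ENSMUSG00000003824.12) spans chr8:84872111-84888221 on the plus strand, with 1 protein-coding TSS at 84872111. Syce3 (ENSMUSG00000078938.9) spans chr15:89390174-89410503 on the minus strand, with TSSs 240 bp apart at 89410503 and 89410263. Tex12 (ENSMUSG00000032065.6) spans chr9:50556819-50561325 on the minus strand, with TSSs at 50561325 and 50561310. The nearest TSS of another gene was 3337 bp away for Syce1 (the pseudogene Gm29799), 4049 bp for Tex12 (Il18), 4164 bp for Syce2 (Mir7069), 10898 bp for Syce3 (Cpt1b) and 16013 bp for Sycp1 (Gm22826). No peak counted at a member reached the TSS window of another gene.

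The bases just upstream of each annotated start are shown because 54 of the 76 peaks called at the members crossed the TSS into them or past them, and the other 22 began downstream. Each is read 5′ to 3′ on the strand of the gene, from the RefSeq promoter table of GRCm38.p6, the same build as mm10, and stops before the first annotated start. Capitals mark the letters of any motif that was searched.
Sycp1, chr3:102936101-102936350: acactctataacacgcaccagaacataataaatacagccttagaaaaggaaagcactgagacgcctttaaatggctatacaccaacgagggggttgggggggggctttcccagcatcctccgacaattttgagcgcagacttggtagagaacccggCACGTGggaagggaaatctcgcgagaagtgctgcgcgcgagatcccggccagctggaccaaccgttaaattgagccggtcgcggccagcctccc
Syce1, chr7:140787855-140788104: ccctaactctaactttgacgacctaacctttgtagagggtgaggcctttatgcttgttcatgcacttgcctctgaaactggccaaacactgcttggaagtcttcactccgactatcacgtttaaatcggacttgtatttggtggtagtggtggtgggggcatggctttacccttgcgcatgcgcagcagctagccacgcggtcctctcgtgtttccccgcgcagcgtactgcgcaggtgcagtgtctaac
Syce2, chr8:84871861-84872110: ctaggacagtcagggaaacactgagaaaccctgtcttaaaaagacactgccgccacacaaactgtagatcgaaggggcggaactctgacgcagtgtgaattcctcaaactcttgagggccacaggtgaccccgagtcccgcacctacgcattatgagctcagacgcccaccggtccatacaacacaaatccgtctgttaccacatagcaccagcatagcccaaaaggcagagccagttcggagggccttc
Syce3, chr15:89410504-89410753: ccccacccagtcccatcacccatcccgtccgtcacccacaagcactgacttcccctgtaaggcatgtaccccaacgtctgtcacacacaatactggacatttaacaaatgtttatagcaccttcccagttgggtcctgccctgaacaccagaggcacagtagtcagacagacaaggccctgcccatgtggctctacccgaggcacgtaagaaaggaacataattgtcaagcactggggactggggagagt
Tex12, chr9:50561326-50561518: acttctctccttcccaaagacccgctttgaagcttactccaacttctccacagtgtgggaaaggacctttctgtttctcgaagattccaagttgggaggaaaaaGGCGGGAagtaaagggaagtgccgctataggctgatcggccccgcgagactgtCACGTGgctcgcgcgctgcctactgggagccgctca

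Sycp1 and Tex12 shared the letters of the E-box, CACGTG, which begin at base -94 and base -93 from their RefSeq starts. The RefSeq start of Sycp1, 102936100, is also its most upstream protein-coding TSS. That of Tex12, 50561268, lies downstream of its TSSs at 50561325 and 50561310. The letters of Tex12 therefore lie nearer to those TSSs than base -93, and the 2 positions are not alike when counted from the TSSs. Of the 31396 promoter windows in the table, each from 250 bases before to 50 bases after a start, 7.14% held these letters on either strand. The same letters stood in the promoter window of Six6os1 (base -171), the further central element gene, and in the second of the Syce2 windows (base -88 from the RefSeq start at 84872258, which lies inside the annotated gene). The E2F letters GGCGGGA, found in 11.4% of windows, stood in the Tex12 window at base -146 and at 2 places in the second Syce2 window. The letters CNCCTCAG, recorded as a STRA8 motif and found in 7.92% of windows, stood in the Sycp1 window (base 32), the second Syce2 window (base -39) and the Tex12 window (base -7), in each case outside the stretches shown. The RFX letters GTTGCCA, found in 4.41% of windows, stood at base -6 of the second Syce3 window. The Syce1 window and the upstream windows of Syce2 and Syce3 held none of the letters searched. The cAMP response element TGACGTCA (1.83% of windows) and its shorter form TGACGT, which lies within it (7.57%), were searched too and stood in no window of a member. The number of CpG pairs per 300-base window was 21 for Sycp1, 14 for Syce1, 26 for Tex12, 19 and 33 for the 2 windows of Syce2, and 5 and 15 for the 2 windows of Syce3, beside a median of 7 and quartiles of 3 and 21 over all windows. The upstream Syce3 window was the poorest in CpG of the 7, and its second start lies in a richer stretch. A match describes letters and not binding.

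The 5 genes were marked in 76 of the 100 combinations of gene and list. The H3K4me2/3 antibody gave a peak at all 5 genes at all 5 stages, 25 of 25. H3K4me3 gave 38 of 50 and H3K9ac gave 13 of 25. All calls for H3K9ac lay in the first 3 stages, and 20 of the H3K4me3 calls lay in the 4 lists of leptonema and zygonema. At most 1 peak lay at the TSSs of a gene in any list. Sycp1 was the only member with a further peak inside the gene, for H3K4me2/3 at leptonema, late pachynema and diplonema. The plot of members beside all genes shows these counts against the share of all genes marked in the same list.

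**Figure D1:**
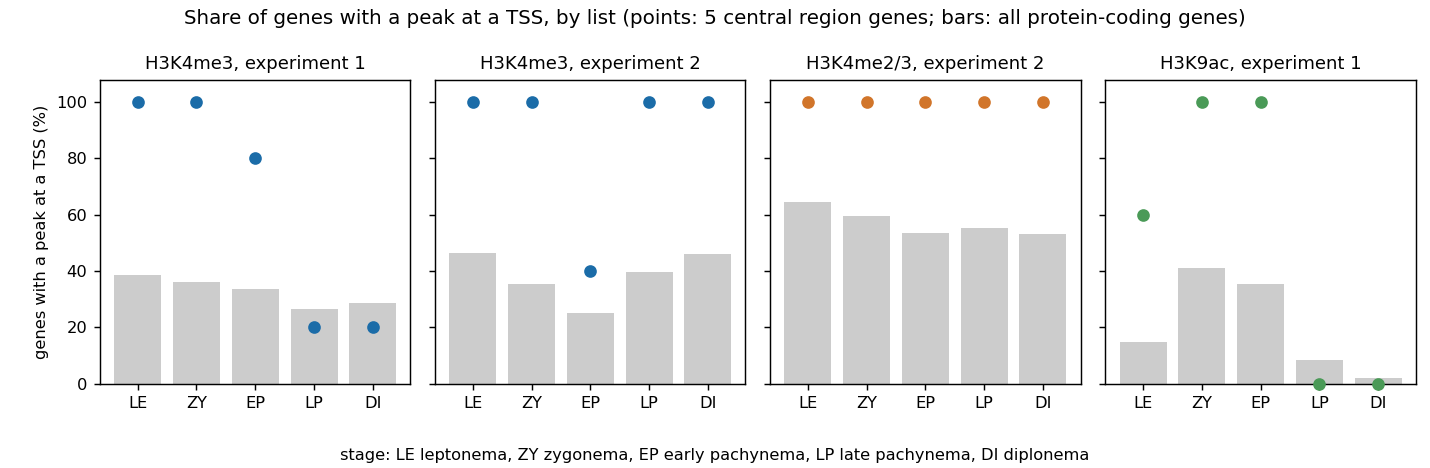
Percent of genes with a peak at a TSS (vertical axis) at each stage (horizontal axis), with 1 panel for each antibody and experiment. Points are the 5 central region genes and bars are all 20722 protein-coding genes. All 5 genes were marked in both leptonema and zygonema lists of H3K4me3, and 1 of 5 in late pachynema and diplonema of experiment 1.

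For H3K4me3, all 5 genes were marked in leptonema in experiments 1 and 2, where 38.7% and 46.3% of all protein-coding genes were marked, and in zygonema, where these shares were 36.2% and 35.3%. Of all genes, 31.3% were marked in all 4 of these lists, as were all 5 members. In early pachynema, 4 of the 5 members were marked in experiment 1 (33.6% of all genes) and 2 of 5, Sycp1 and Syce1, in experiment 2 (25.2%). In late pachynema the experiments differed: only Syce1 was marked in experiment 1 (26.4%) and all 5 in experiment 2 (39.7%). The same held in diplonema, with Syce1 alone in experiment 1 (28.7%) and all 5 in experiment 2 (46.0%). Syce1 was the single member marked in all 10 lists, as were 18.0% of all genes. The late pachynema and diplonema lists of experiment 1 held 5189 and 6645 peaks and those of experiment 2 held 9124 and 12071, and the part of list length in the missing calls was not tested. At every stage the study lists a different purity and amount of starting chromatin for each experiment, and none of these sorts was fully pure. The part of purity and starting chromatin in the calls was not tested either.

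For H3K4me2/3, all 5 members were marked at leptonema (64.7% of all genes), zygonema (59.4%), early pachynema (53.7%), late pachynema (55.4%) and diplonema (53.3%). A peak at all 5 stages was called for 47.8% of all genes. For H3K9ac, Sycp1, Syce2 and Syce3 were marked at leptonema (14.8% of all genes), all 5 at zygonema (41.1%) and all 5 at early pachynema (35.3%). Of all genes, 33.2% were marked at both zygonema and early pachynema. No member was marked for H3K9ac at late pachynema (8.27%) or diplonema (1.99%). These 2 lists held 1727 and 516 peaks, beside 16003 at zygonema, and 0 of 5 is close to the small shares of all genes that they marked.

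Sycp1, the transverse filament gene, had leptonema H3K4me3 peaks of 1053 bp in experiment 1 and 839 bp in experiment 2. The zygonema peaks were 831 bp and 981 bp in the same order, and both early pachynema peaks were 689 bp. In late pachynema no peak was called in experiment 1 and a peak of 1465 bp in experiment 2, and in diplonema none and 1686 bp. The 2 experiments thus agreed through early pachynema and parted after it, and the widest and the missing peaks of Sycp1 came from the same 2 stages. Within experiment 2 the late peaks were wide for their lists, at percentile 93.8 (late pachynema) and 88.4 (diplonema) of all peaks in the list. The H3K4me2/3 peaks were 1565 bp, 2510 bp, 2135 bp, 2340 bp and 2333 bp from leptonema to diplonema, and percentile 97.3 at zygonema was the highest of any member in any list. H3K9ac peaks were 704 bp, 1333 bp and 1096 bp in leptonema, zygonema and early pachynema. Sycp1 had the widest H3K9ac peak of the 5 genes at each of these stages.

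Syce1, a central element gene, had an H3K4me3 peak in every list. In the order of experiments 1 and 2, the widths at leptonema were 700 bp and 992 bp, at zygonema 406 bp and 211 bp, and at early pachynema 341 bp and 348 bp. They were 362 bp and 634 bp at late pachynema and 587 bp and 736 bp at diplonema. The 2 lowest stage means were those of zygonema and early pachynema, whose ranges overlapped. Early pachynema lay below both late pachynema peaks, zygonema overlapped late pachynema, and leptonema overlapped diplonema. The H3K4me2/3 peaks were also narrowest at zygonema and early pachynema, with 1213 bp, 975 bp, 799 bp, 1410 bp and 2129 bp from leptonema to diplonema. H3K9ac peaks were 677 bp at zygonema and 171 bp at early pachynema, the latter at percentile 3.68 of its list. This was the narrowest peak called at any member.

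Syce2, whose product is a central element protein, had H3K4me3 peaks at leptonema that measured 788 bp (experiment 1) and 1169 bp (experiment 2). At zygonema they measured 433 bp and 634 bp, and at early pachynema 297 bp with none in experiment 2. In late pachynema and diplonema no peak was called in experiment 1, and peaks of 288 bp and 280 bp were called in experiment 2. Every early width was above every later width. The H3K4me2/3 peak did not show this order, with 1501 bp, 1370 bp, 1303 bp, 1617 bp and 1173 bp from leptonema to diplonema. H3K9ac peaks were 302 bp, 929 bp and 881 bp in the first 3 stages.

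Tex12, whose product is the partner of SYCE2, was the member most like Syce2. Its H3K4me3 peaks at leptonema measured 845 bp in experiment 1 and 1135 bp in experiment 2, those at zygonema 710 bp and 696 bp, and that at early pachynema 190 bp in experiment 1 with none in experiment 2. In experiment 2 the peaks of late pachynema and diplonema were 346 bp and 354 bp, and none was called in experiment 1. The early and later widths of Tex12 did not overlap either. Its H3K4me2/3 peaks were 1062 bp, 970 bp, 1155 bp, 1390 bp and 1247 bp, and its H3K9ac peaks 707 bp at zygonema and 504 bp at early pachynema.

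Syce3, the smallest in the set of central element proteins, had H3K4me3 peaks at leptonema of 672 bp (experiment 1) and 1339 bp (experiment 2). At zygonema these were 616 bp and 219 bp. No peak was called in early pachynema in either experiment, the only member and stage for which both experiments lacked one. In experiment 2 a peak of 389 bp was called in late pachynema and of 672 bp in diplonema, while experiment 1 had none at either stage. The diplonema peak of experiment 2 was thus as wide as the leptonema peak of experiment 1, and early and later widths overlapped. H3K4me2/3 peaks were 1723 bp, 1205 bp, 1489 bp, 1725 bp and 1943 bp. The gene without H3K4me3 peaks in early pachynema thus had a peak of the less specific antibody there. For this stage of experiment 2 the study lists a different purity and amount of starting chromatin for the 2 antibodies, so the contrast is not matched. H3K9ac peaks were 578 bp, 890 bp and 1012 bp in the first 3 stages, and Syce3 was the only member whose H3K9ac peak was wider at early pachynema than at zygonema.

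**Figure D2:**
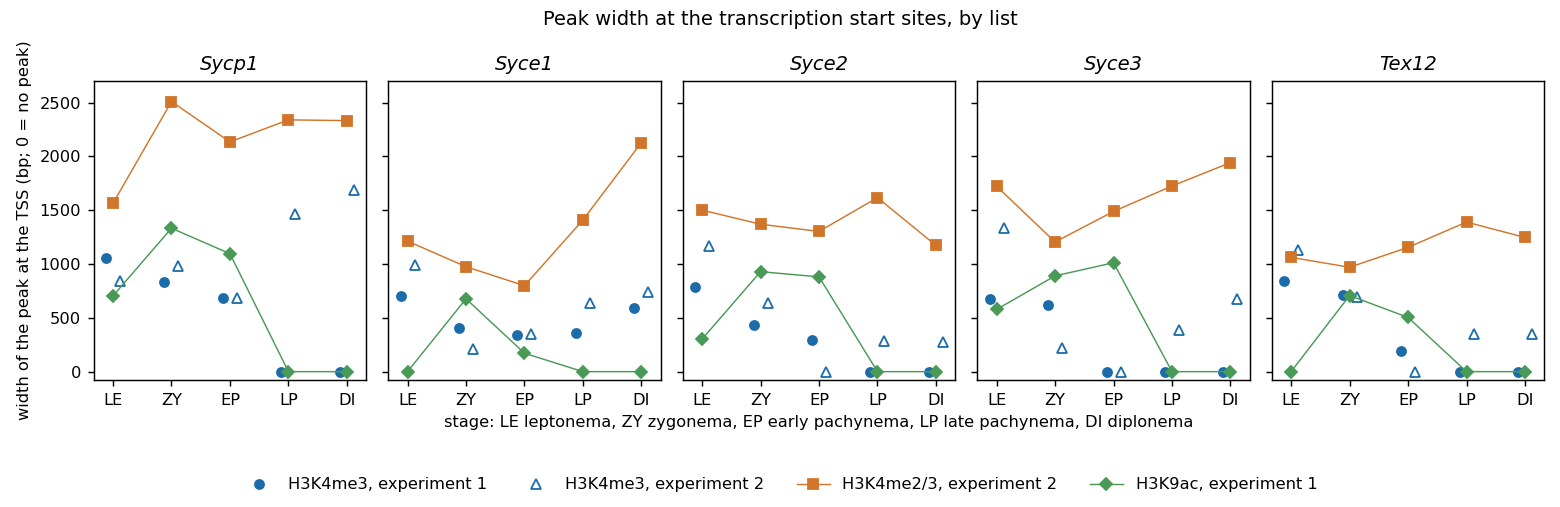
Width in bp of the widest peak at the TSSs of each gene (vertical axis, 0 where no peak was called) at each stage (horizontal axis), with 1 panel for each gene. Filled circles and open triangles are H3K4me3 in experiments 1 and 2, squares H3K4me2/3 and diamonds H3K9ac, each symbol 1 list. Squares are above 0 at every stage and diamonds are at 0 in late pachynema and diplonema in all 5 panels.

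The comparison of the 4 leptonema and zygonema lists with the 6 later lists asks whether the H3K4me3 peak is wider while the complex is being built. It was run for 11215 genes with a peak in at least 1 of the 10 lists, with a width of 0 bp where no peak was called. The lists of experiments 1 and 2 are the replicates of a stage. The labels do not say that they came from separate animals, so the p-values measure only the spread between these lists, which may be technical. Tex12 had a mean width of 846.5 bp ± 204 (SD, n = 4) early and 148 bp ± 173 (SD, n = 6) later, a difference of 698 bp (exact permutation test, two-sided, with all 210 splits, p = 0.00476, which is the lowest value that these lists allow, and adjusted p = 0.115 over all genes tested). Syce2 had 756 bp ± 311 (SD, n = 4) and 144 bp ± 158 (SD, n = 6), a difference of 612 bp (same exact test, p = 0.00476, adjusted p = 0.115). For Syce3 the means were 711.5 bp ± 464 (SD, n = 4) and 177 bp ± 288 (SD, n = 6), with a difference of 535 bp (exact p = 0.0571, adjusted p = 0.307). Sycp1 differed by 171 bp, from 926 bp ± 109 (SD, n = 4) to 755 bp ± 710 (SD, n = 6) (exact p = 0.652, adjusted p = 0.856). Syce1 differed by 75.9 bp, from 577 bp ± 342 (SD, n = 4) to 501 bp ± 172 (SD, n = 6) (exact p = 0.657, adjusted p = 0.860).

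No member passed the threshold of 0.05 after adjustment, and neither did any other gene (0% of 11215). With 210 splits, at least 1069 genes would have to reach the smallest p for that p to pass by itself, and 464 did. Enough genes at the next p-values could also have allowed a call, but the smallest adjusted p was 0.115. A member at the smallest p could therefore not be called, whatever the size of its difference. Before adjustment, 1910 genes had p at most 0.05, and 14.7% of the genes tested had it with the early lists wider. Syce2 and Tex12 were the members among them, 2 of 5. Early widths all above later widths were found for 5.47% of genes and for the same 2 members. All 5 members had the larger mean early, as did 62.4% of all genes tested, and the median difference was 535 bp over the members and 89.7 bp over all genes.

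**Figure D3:**
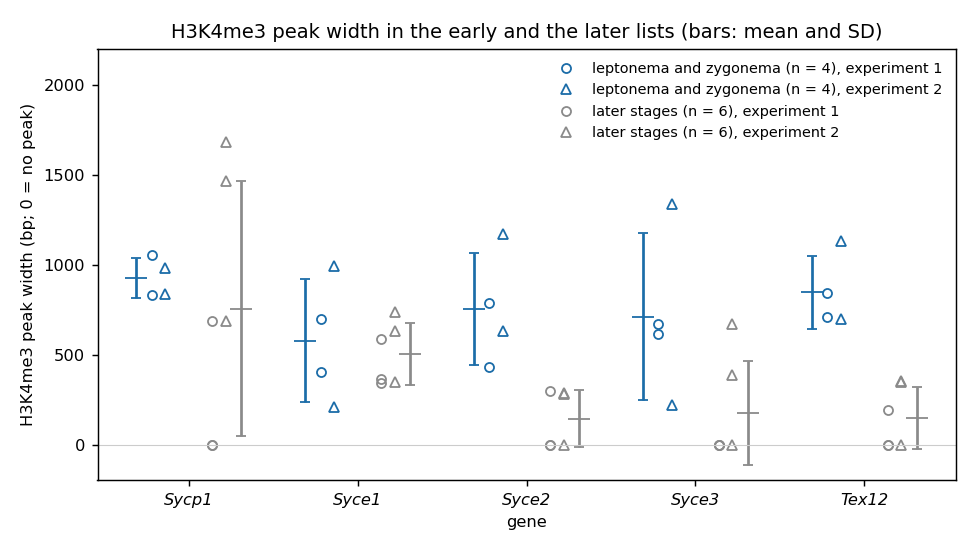
H3K4me3 peak width in bp (vertical axis, 0 where no peak was called) in the 4 leptonema and zygonema lists and the 6 later lists, for each gene (horizontal axis). Circles are experiment 1, triangles experiment 2, and bars the mean and SD of each group. Points of the groups do not overlap for Syce2 and Tex12.

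Within experiments, the differences of Tex12 were 714 bp in experiment 1 and 682 bp in experiment 2, and those of Syce2 511.5 bp and 712 bp. Syce3 differed by 644 bp and 425 bp. Sycp1 had the opposite sign in the experiments, with 942 bp early and 230 bp later in experiment 1, and 910 bp early and 1280 bp later in experiment 2, a difference of -370 bp. The mean difference of Sycp1 over both experiments therefore rests on the missing peaks of late pachynema and diplonema in experiment 1. Leaving out late pachynema or diplonema of experiment 1 alone gave 20.2 bp, and leaving out diplonema of experiment 2 gave 357 bp. Without both lists of experiment 1, an alternative chosen after the values were seen, it was -206 bp, whereas Syce2 and Tex12 stood at 540 bp and 624 bp.

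The leptonema lists of experiments 1 and 2 differed in H3K4me3 calls at marker genes of Sertoli cells. Of 4 marker genes of Sertoli cells (Sox9, Wt1, Cldn11 and Gata4), 3 had an H3K4me3 peak in leptonema of experiment 2 and 1 in zygonema of experiment 2, and none in the other 8 lists. Of all genes, leptonema and zygonema of experiment 2 marked 46.3% and 35.3%, and the other 8 lists 25.2% to 46.0%. The H3K4me2/3 leptonema list of experiment 2 marked 4 of 4 (64.7% of all genes), zygonema 2 (59.4%) and the later lists 1 each (53.3% to 55.4%). The H3K9ac lists marked 0 (1.99% to 41.1% of all genes). Of 5 marker genes of spermatogonia (Zbtb16, Gfra1, Etv5, Kit and Dmrt1), 2 and 3 had an H3K4me3 peak in leptonema of experiments 1 and 2, 2 and 1 in zygonema, and 0 or 1 in each later list. Leptonema marked 38.7% and 46.3% of all genes, zygonema 36.2% and 35.3%, and the later lists 25.2% to 46.0%. The H3K4me2/3 lists marked 5 of the 5 at leptonema (64.7% of all genes) and at zygonema (59.4%), and 3 or 4 at each later stage (53.3% to 55.4%). The H3K9ac lists marked 4 at zygonema (41.1% of all genes), 1 at early pachynema (35.3%) and 0 at the other stages (1.99% to 14.8%). The early and later widths differed by 643 bp for Etv5 (two-sided exact permutation test, p = 0.019, adjusted p = 0.198) and by 952.5 bp for Dmrt1 (p = 0.0333, adjusted p = 0.231). Kit, with an H3K4me3 peak in 1 list, differed by 43.75 bp (same exact test, p = 0.4, adjusted p = 0.667). Zbtb16 and Gfra1 had no H3K4me3 peak in any list. Of the 4 Leydig cell markers, 0 or 1 was marked in any list, beside 1.99% to 64.7% of all genes. The marker counts were not tested against these shares. The H3K4me3 leptonema list of experiment 2 held the widest peak of Syce1, Syce2, Syce3 and Tex12 over all 10 lists. The part of other cells in these widths was not tested. Without that list, the difference between early and later lists was 474 bp for Syce2, 602 bp for Tex12 and 325.5 bp for Syce3, still positive, and -62.3 bp for Syce1.

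The peaks were not centred on the TSS. Distances are given from the most upstream protein-coding TSS, negative upstream. Of the 38 H3K4me3 peaks, 17 began downstream of it and covered none of the upstream bases shown above, and 21 crossed it. All 25 H3K4me2/3 peaks crossed it, and of the 13 H3K9ac peaks, 8 crossed it and 5 began downstream. The first exons are 105 bp to 115 bp long in Sycp1, 102 bp to 117 bp in Syce1, 143 bp in Syce2, 73 bp to 105 bp in Syce3 and 85 bp to 100 bp in Tex12, and every peak at a member ran past the end of the first exon of the transcript that starts most upstream.

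The start of the H3K4me3 peak differed between the genes. For Tex12, 6 of 7 peaks crossed the TSS, from base -461 at most in leptonema of experiment 2. The seventh, in early pachynema of experiment 1, ran from base 80 to base 269. For Syce2, 2 of 7 crossed it, and the peaks of leptonema, zygonema and early pachynema in experiment 1 began at bases 133, 171 and 155, near the second RefSeq start of the gene. For Syce1, 4 of 10 crossed it. The 6 others, which included both zygonema and both early pachynema lists, began between bases 12 and 64. For Syce3, the peaks of leptonema experiment 1 and zygonema experiment 2 began at bases 172 and 234, close to its second TSS, and the other 4 crossed the first TSS.

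Sycp1 was marked upstream of its TSS at late stages. Its H3K4me3 peaks began at bases -295 and -201 in leptonema, 26 and -155 in zygonema, and 4 and 46 in early pachynema. In experiment 2 they then began at base -685 in late pachynema and -892 in diplonema, while the downstream edge stayed between bases 637 and 856 in all 8 peaks. The added width of the late peaks was therefore on the upstream side. The H3K4me2/3 peak of Sycp1 began at bases -522, -713, -1095, -1214 and -1418 from leptonema to diplonema, further upstream at each later stage. Such an order over the 5 stages was found for 4.82% of the 9084 genes with 1 H3K4me2/3 peak at their TSSs at every stage. From leptonema to diplonema the upstream edge of Sycp1 moved out by 896 bp, against a median of 82.5 bp over these genes, and 89.9% of them moved less.

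The other members did not share this course. Syce3 moved out by 465 bp and Tex12 by 258 bp on the upstream side, with a smaller movement in 74.5% and 62.5% of genes. The upstream edges of Syce1 and Syce2 moved in, by values of -258 bp and -254 bp, and a lower value was found in 20.4% and 20.7% of genes. Syce1 instead grew on the downstream side, with the last base at 691, 497, 636, 1127 and 1865 from leptonema to diplonema, a gain of 1174 bp beside a median of 221 bp, and 91.7% of genes gained less. Syce2 was the 1 member whose H3K4me2/3 peak narrowed, by a change of -328 bp from leptonema to diplonema, beside a median change of 372 bp over all genes. With 1 list a stage there is no replicate of these edges, and no test was made.

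**Figure D4:**
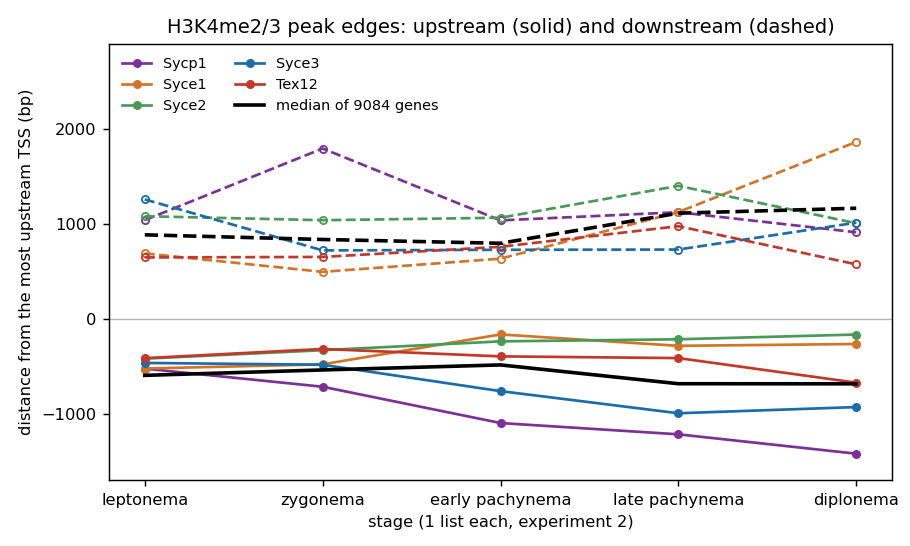
Upstream edge (solid lines) and downstream edge (dashed lines) of the H3K4me2/3 peak in bp from the most upstream TSS (vertical axis) at each stage (horizontal axis, 1 list each). Colours are the 5 genes and black is the median of 9084 genes. The upstream edge of Sycp1 moves from -522 at leptonema to -1418 at diplonema.

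**Figure D5:**
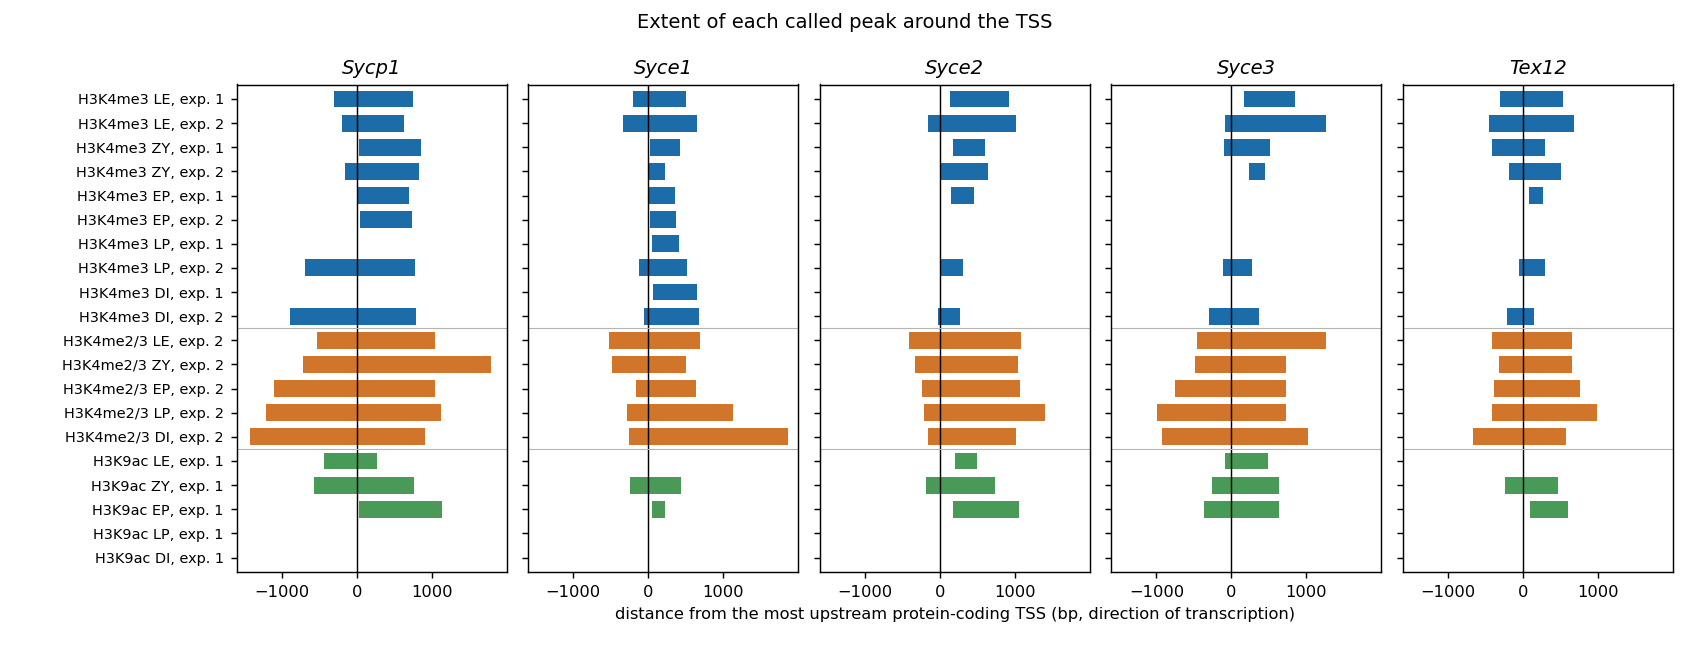
Extent of every called peak (bars) in bp from the most upstream protein-coding TSS of each gene (horizontal axis, transcription to the right), with 1 row for each of the 20 lists and 1 panel for each gene. Stages are leptonema (LE), zygonema (ZY), early pachynema (EP), late pachynema (LP) and diplonema (DI), and exp. is the experiment. Rows with no bar had no peak at that gene.

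The 2 antibodies against H3K4 methylation could be set side by side in experiment 2, and H3K9ac with H3K4me3 in experiment 1. At early pachynema of experiment 2, the study lists a different purity and amount of starting chromatin for the 2 antibodies. The cases at that stage are therefore not matched. In the 22 cases in which both lists of experiment 2 marked a member at the same stage, the H3K4me2/3 peak was wider in 21 and held the whole H3K4me3 peak in 21. The exception was Tex12 at leptonema, where 1062 bp and 1135 bp were called. The ratio of widths had a median of 2.43 over the 22 cases, from 0.936 to 5.61, and the median over all genes with both peaks lay between 1.83 and 3.55 by stage. At leptonema, the ratio was 1.22 for Syce1, 1.28 for Syce2 and 1.29 for Syce3, beside 1.83 over all genes, and at diplonema it was 2.89, 4.19 and 2.89, beside 2.11. Sycp1 went the other way, from 1.87 at leptonema to 1.38 at diplonema. In experiment 1, H3K9ac and H3K4me3 both marked a member in 12 cases, with a ratio of H3K9ac to H3K4me3 width from 0.383 to 2.97. At leptonema it was below 1 for the 3 genes with both, as was the median over all genes, 0.551. At early pachynema it was 2.97 for Syce2, 2.65 for Tex12, 1.59 for Sycp1 and 0.501 for Syce1, beside 1.31 over all genes. At early pachynema of experiment 1, Syce3 had an H3K9ac peak of 1012 bp and no H3K4me3 peak.

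The likeness of 2 genes was described as Pearson's r of the width percentile within each list, with 0 where no peak was called, over the 20 lists. These lists share libraries of the same stage and differ in length, so that r is a description. Syce2 and Tex12 were the pair most alike, with r = 0.89, followed by Syce2 and Syce3 (0.85) and Syce3 and Tex12 (0.727). Syce1 was least like the others, with r from 0.4 to 0.534, and Sycp1 lay between, with 0.596 to 0.657 to the 3 genes other than Syce1. The most similar genes outside the set were Hmgb1, Mex3c and Mepce for Sycp1 (0.959, 0.947 and 0.943), Zfp821, Cenpw and Stom for Syce1 (0.908, 0.899 and 0.898), Adnp2, Susd6 and Taok2 for Syce2 (0.947, 0.946 and 0.94), Fastk, Cry2 and Acp1 for Syce3 (0.929, 0.923 and 0.914), and Mfsd8, Nsf and Taok2 for Tex12 (0.983, 0.967 and 0.955). For each member these values were above its r to every other member. They were picked as the highest among all protein-coding genes, so this was to be foreseen and says nothing about the set.

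Six6os1 (4930447C04Rik in the annotation), which encodes a further central element protein, also had early H3K4me3 widths that were all above the later ones. At its TSSs at positions 72917760 and 72917906 of chromosome 12, H3K4me3 peaks measured 1187 bp and 1448 bp at leptonema (experiments 1 and 2) and 1278 bp and 691 bp at zygonema. They then measured 531 bp and 205 bp at early pachynema and 193 bp at late pachynema of experiment 1. No peak was called in late pachynema of experiment 2 or in diplonema, so that it lacked a peak in the 2 long late lists in which all 5 members had one. H3K4me2/3 peaks at these sites narrowed from 1556 bp at zygonema to 956 bp at diplonema, and H3K9ac peaks were 1059 bp at zygonema and 925 bp at early pachynema. Counted over all of its TSSs, early and later H3K4me3 lists differed by 1062 bp (two-sided exact permutation test, p = 0.00476, adjusted p = 0.115), a value that includes a peak of 1710 bp at other TSSs in leptonema of experiment 2.

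The genes of the chromosome axis and the lateral elements, which the central region joins, were counted for comparison. Of 10 such genes, 7 had an H3K4me3 peak in all 4 leptonema and zygonema lists and 5 in all 10 lists, beside 5 and 1 of the 5 central region genes. The shares of all genes were 31.3% and 18.0%. The 3 without any H3K4me3 peak were Sycp2l, Rec8 and Rad21l. All 7 axis genes tested were wider early, as were 62.4% of all genes tested. The median difference was 196 bp over the axis genes and 89.7 bp over all genes tested, which include genes marked in as few as 1 list. Of the 7, 0 passed the adjusted threshold in either direction (1 at an unadjusted exact p of at most 0.05). For H3K9ac, 7 of the 10 were marked at both zygonema and early pachynema, beside 33.2% of all genes. At late pachynema or diplonema 3 kept a peak, where no central region gene did. These 2 lists marked 8.27% and 1.99% of all genes. The difference between the gene groups was not tested. Among the genes of the sorting markers, Sycp3 was marked in all 10 H3K4me3 lists, and Stra8 and H1t were each marked in 2 of the 4 leptonema and zygonema lists and in none later.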

How the data were processed

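ChIP-Seq was performed on sorted nuclei for H3K4me3, H3K4me2/3 and H3K9ac, and 20 of 51 samples were used here. The other 31 samples were not analysed here. Per the labels and the study's methods, the authors aligned reads to mm10 with BWA 0.7.12 and called broad peaks per library with MACS2 2.1.2 (q 0.1), against stage-matched input for H3K4me3. For H3K9ac the control is not given in the sources used here, and 1 label field names its antibody as anti-H3K4me3 whereas the titles and methods give H3K9ac. The deposited files hold peak starts and ends and no score, signal or count. A library that was deeper or purer can give a longer list, and the absence of a peak does not mean that a mark was absent.

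Peaks were assigned to genes with Python 3.11.15 and numpy 2.4.6. The gene counts of all 20 lists were the same with bedtools 2.31.1. Widths were compared by two-sided exact permutation tests with Benjamini-Hochberg adjustment over all genes tested and a threshold of 0.05. The test was checked on simulated lists of 5490 genes. With 200 changed genes, all 200 reached the smallest p and 0 were called, since these were too few. With 2000 changed genes, all 2000 reached it and were called, as were 40 unchanged genes. The early widths of the changed genes were raised by far more than the difference of any member. That each changed gene reached the smallest p was therefore set in advance. Differences of the size seen at the members were not simulated. Figures were drawn with matplotlib 3.10.9.

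The experiment numbers did not pair the lists in the same way at all stages. Over the 10 pairs of stages, the correlation of the deviations from the stage means lay between -0.233 and 0.365, and 2 of 10 were above 0.1. These were 0.365 for late pachynema with diplonema and 0.152 for zygonema with early pachynema, so some stages shared a difference between experiments. The members and gene lists were chosen with earlier results of these data known. Genes named outside the set are the central element gene Six6os1, the nearest neighbours, the 3 genes most alike to each member, and the axis, sorting marker and cell type marker lists. Of the round spermatid markers, 0 or 1 of 4 was marked in an H3K4me3 list, beside 25.2% to 46.3% of all genes. The alternatives were other TSS windows (250 bp and 1000 bp), transcripts of every type, an overlap of 200 bp, width percentiles, calls alone, equal list lengths, the wider peaks of each list, genes marked in at least 3 lists, a replicate block and leaving out each list. Leaving out 2 lists together was added after the data were seen.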

Additional observations from a re-analysis of the deposited data

How the results depend on the processing

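With the experiment number as a replicate block, the comparison of early with later H3K4me3 lists called 0 genes, as did the test without the block. The block gave 1909 genes at an unadjusted p of at most 0.05 (smallest possible exact p 0.01) and changed no member's side of the threshold. The count of calls was 0 under each of the 20 alternatives, leaving out each list in turn included (0 to 0), with a smallest adjusted p between 0.0846 and 0.41. No alternative allowed an exact p below the lowest of the main test, 0.00476, at which no gene passed. The unchanged 0 and the unchanged sides of the threshold are therefore no sign of stability. The number of genes at an unadjusted exact p of at most 0.05 ranged from 531, with calls in place of widths, to 2553, without diplonema of experiment 2. Syce2, Syce3 and Tex12 kept the sign of the difference under all 20. Sycp1 ranged from 20.2 bp to 357 bp when each list was left out, and reversed to -246 bp with the 4883 widest peaks of each list and to -206 bp without late pachynema and diplonema of experiment 1. Syce1 reversed to -1.22 percentile points when widths were taken as percentiles, and ranged from -62.3 bp to 198 bp when each list was left out. Calls at the members fell with equal list lengths from 38 to 21 for H3K4me3 and from 13 to 0 for H3K9ac, whose lists were then 516 peaks long, and with the wider peaks of each list to 20 and 8. H3K4me2/3 calls were 25 and 22 under these settings. Leaving out each list gave 33 to 37 H3K4me3 calls of 45. The depth of the libraries is unknown, which limits what a missing peak says.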
